A study of Mus musculus with 18 samples.

Results

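The 9 myeloid granule protein genes Lyz1, Lyz2, Mpo, Elane, Prtn3, Ctsg, Lcn2, Ltf and Camp were followed through C/EBPα-induced conversion of pre-B cells, out of 22367 protein-coding genes in the mm9 annotation (GENCODE vM1). They were chosen by name, with earlier results of these data known, and each locus was taken as the gene span plus 20 kb on either side. The cells were C10 cells, a single line derived from the HAFTL pre-B line, which carries an inducible C/EBPαER-GFP fusion that moves into the nucleus when β-estradiol is added. According to the labels, β-estradiol was used at 100 nM in induced cells (the study's methods give the dose in µM in place of nM). For all 18 libraries, those of uninduced cells included, the labels list IL-3 and CSF-1 at 10 nM and the solvent, 0.1% ethanol. Cells of this system take on features of macrophages after induction. The labels do not say whether the C/EBPα antibody separates the fusion protein from C/EBPα made by the cells. The 2 therefore cannot be told apart in these libraries. By RNA, the study places expression of the cells' own C/EBPα later than 24 hours after induction. Chromatin immunoprecipitation followed by sequencing (ChIP-seq) gave 18 libraries, 1 for each factor and time. C/EBPα was measured at 0 hours post-induction (hpi), at 10, 30 and 60 min and at 3, 12, 24 and 48 hpi. The other factors, C/EBPβ and PU.1, were measured at 0, 3, 12, 24 and 48 hpi. The libraries hold no RNA, so the identity of the cells at each time could not be compared with marker expression, and an input library was not analysed here.

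Granule proteins are the preformed arsenal of neutrophils and monocytes. Primary (azurophil) granules are filled early in maturation with myeloperoxidase (Mpo) and the serine proteases neutrophil elastase (Elane), proteinase 3 (Prtn3) and cathepsin G (Ctsg), and secondary granules are filled later with lactoferrin (Ltf), lipocalin 2 (Lcn2) and the cathelicidin precursor (Camp). Lysozyme cleaves bacterial cell walls, and mice carry neighbouring copies of its gene, of which Lyz2 is the form of macrophages and Lyz1 that of Paneth cells. C/EBP factors and the ETS factor PU.1 are known regulators of many of these genes in myeloid progenitors.

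Each value below is the number of reads, with the 5′ end moved 75 bp inward and 1 read kept per position and strand, within 200 bp of a site's centre, per 10000000 (10 M) reads of the library. Series of values are in the order of time given above, 8 for C/EBPα and 5 for each of the other factors. A region was called where a 200-bp window passed a genome-wide Poisson threshold of 1e-07 and held at least 4 times the density of the surrounding 10 kb, and regions whose centres lay within 300 bp were merged across libraries into a site. A window can therefore hold more reads than a called one and still be uncalled. Intervals are exact Poisson or, for ratios, exact conditional binomial 95% intervals. They cover counting error only, and with 1 library per factor and time no difference between times has a replicate check. A fold of the highest library over another follows from picking that library by its value, and is given as a description with no interval. More reads may mean more cells with the factor at a site or more of it in each cell, which cannot be told apart. Nor can either be told apart from a difference between libraries in how far reads gather at regions. The share of reads within 1 kb of regions was 11.8% at 10 min and 20.4% at 12 hpi for C/EBPα, and highest at 3 hpi. For C/EBPβ it ran from 14.3% at 0 hpi to 22.1% at 48 hpi. For PU.1 it was lowest at 0 hpi (28.1%) and highest at 12 hpi. Whether the highest libraries named below follow from this was not tested. The C/EBPα libraries held 5.97 to 24.9 M reads. Those of C/EBPβ, the smallest, held 2.90 to 5.84 M reads and those of PU.1 held 6.57 to 11.3 M reads, so that 3 reads correspond to 10.3 per 10 M in the smallest (C/EBPβ at 12 hpi). The 10, 30 and 60 min C/EBPα libraries had 50-base reads and the other C/EBPα libraries 36-base reads. For them time cannot be told apart from the way they were sequenced.

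Merging gave 50 sites in the 9 loci, 22 with C/EBPα called at some time, 11 with C/EBPβ and 41 with PU.1. Over the genome's 99343 sites the shares were 39.0%, 18% and 74.9%, so that those of the members lay close to them. The sequences of 8 of them follow. They span 75 bp on either side of the centre on the plus strand of mm9 (cut short of an annotated UTR at Elane −0.1 kb and Prtn3 −0.1 kb) and are shown for the sites that carry the largest read counts or the contrasts described below. Capitals mark copies of TTGCNNAA (C/EBP), GAGGAAGT (PU.1) or the shorter ETS core GAGGAA, which lies inside GAGGAAGT, on either strand. Distances are from the annotated transcription start site (TSS), negative upstream.

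Lyz1 −9.0 kb (chr10:116738810-116738960): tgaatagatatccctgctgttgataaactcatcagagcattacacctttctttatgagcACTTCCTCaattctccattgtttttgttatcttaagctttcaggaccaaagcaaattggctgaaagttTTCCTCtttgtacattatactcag
Lyz2 −2.8 kb (chr10:116722148-116722298): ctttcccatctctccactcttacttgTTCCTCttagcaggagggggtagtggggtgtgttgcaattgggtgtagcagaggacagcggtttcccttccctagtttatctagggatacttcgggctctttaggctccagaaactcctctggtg
Mpo −3.4 kb (chr11:87603655-87603805): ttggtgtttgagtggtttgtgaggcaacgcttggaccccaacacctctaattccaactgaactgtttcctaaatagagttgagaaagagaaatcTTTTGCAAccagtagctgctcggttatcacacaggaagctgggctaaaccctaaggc
Elane −1.7 kb (chr10:79347313-79347463): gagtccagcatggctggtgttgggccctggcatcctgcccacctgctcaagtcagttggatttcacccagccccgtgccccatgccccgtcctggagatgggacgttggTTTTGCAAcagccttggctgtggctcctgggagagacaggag
Elane −0.1 kb (chr10:79348926-79349056): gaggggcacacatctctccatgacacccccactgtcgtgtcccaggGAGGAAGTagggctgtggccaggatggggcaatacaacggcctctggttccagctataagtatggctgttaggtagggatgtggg
Prtn3 −1.6 kb (chr10:79340638-79340788): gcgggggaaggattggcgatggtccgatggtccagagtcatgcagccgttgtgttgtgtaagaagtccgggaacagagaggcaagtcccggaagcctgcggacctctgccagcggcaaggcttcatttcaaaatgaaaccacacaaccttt
Prtn3 −0.1 kb (chr10:79342212-79342358): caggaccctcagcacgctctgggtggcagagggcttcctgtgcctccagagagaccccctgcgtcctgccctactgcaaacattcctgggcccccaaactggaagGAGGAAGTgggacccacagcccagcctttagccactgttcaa
Camp −0.2 kb (chr9:109752085-109752235): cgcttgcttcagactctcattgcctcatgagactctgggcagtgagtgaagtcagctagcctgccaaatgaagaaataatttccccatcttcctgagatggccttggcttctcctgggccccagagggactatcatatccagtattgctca

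At the level of whole loci, none of the 9 had a C/EBPα region at 0 hpi, against 14.1% of all protein-coding loci. At 10 min 4 of 9 had one (29% of all loci), at 30 min 6 (36.1%), at 60 min 6 (45%), at 3 hpi 8 (47.3%), and at 12, 24 and 48 hpi 7 each (39.0%, 33.2% and 31.1%). Over all times every one of the 9 loci had a C/EBPα region, against 61.8% of all loci. For C/EBPβ the counts were 0 of 9 at 0 hpi (5.87% of all loci), 6 at 3 hpi (20%), 6 at 12 hpi (14.0%), 6 at 24 hpi (23.5%) and 7 at 48 hpi (41.2%), with 7 at any time (44.0%). PU.1 regions were already present in 7 of 9 loci at 0 hpi, close to the 62.4% of all loci, and in 7 at 3 hpi (64.1%), 8 at 12 hpi (75%), 8 at 24 hpi (69.1%) and 8 at 48 hpi (66.2%), with 8 at any time (77.8%). Ctsg was the locus without a PU.1 region, and Ctsg and Lcn2 were those without a C/EBPβ region. The loci are not independent, because Lyz1 and Lyz2 share 10 sites and Elane and Prtn3 share 11, and they are shorter than most (median 45 kb against 55.4 kb for all genes).

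**Figure D1:**
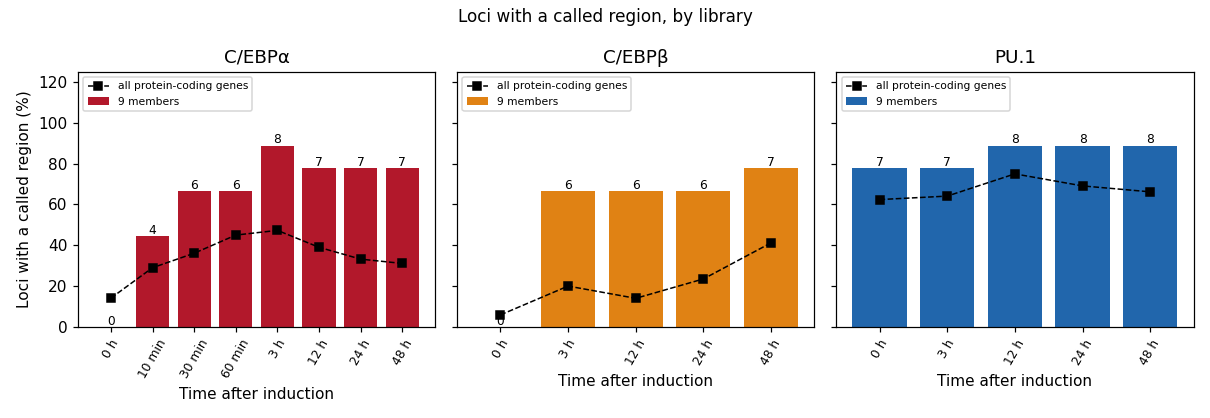
Share of loci (y axis, percent) with a called region of each factor in each library (x axis, time after induction). Bars with counts are the 9 granule protein loci and black squares all 22367 protein-coding loci. The C/EBPα and C/EBPβ bars start at 0 of 9 and stand at 7 of 9 at 48 hpi, while PU.1 starts at 7 of 9.

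Lyz1 and Lyz2 lie side by side on chromosome 10, both on the minus strand (Lyz1 at 116724852 to 116729924, Lyz2 at 116714390 to 116719377). The site with most PU.1 reads of all 50 lies 9.0 kb upstream of Lyz1, in intergenic sequence, and it was bound by PU.1 before induction. PU.1 reads there were 234, 336, 239, 149 and 281, called at all 5 times. The ratio of 48 to 0 hpi was 1.20 (interval 0.989 to 1.46), and the highest library, 3 hpi, stood 1.44-fold above 0 hpi. C/EBPα reads were 1.13, 53.8, 174, 152, 178, 116, 91.0 and 108, called from 10 min on. The 0 hpi library held 1 read here and the 48 hpi library 86, a ratio of 95.9 (16.8 to 3829.9). It was 31.2 within 100 bp, 25.0 within 500 bp and 48.5 with a shift of 100 bp. With thinned libraries 0 hpi held no read, and reading that count of 0 as 3 gave a lower limit of 19.3. C/EBPβ went the same way, with 2.34, 181, 128, 115 and 106 reads, highest in the first induced library and 1.70-fold above 48 hpi at 3 hpi. Of the 9 members' sites, Lyz1 −9.0 kb and Prtn3 −1.6 kb were the only ones with C/EBPα called at 10 min. The printed Lyz1 −9.0 kb sequence holds 1 copy of GAGGAAGT and no TTGCNNAA.

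Lyz2 −2.8 kb, in the stretch between the 2 genes, followed another course. C/EBPα reads were 7.89, 3.21, 4.62, 5.12, 30.6, 67.0, 46.2 and 54.1, so that no library within the first hour exceeded 0 hpi and the region was called from 3 hpi. C/EBPβ reads were 2.34, 22.2, 58.6, 99.3 and 185, each library above the one before, and at 48 hpi this site held more C/EBPβ reads than any other of the 50. PU.1 reads were 4.25, 28.9, 58.8, 37.0 and 34.4, called from 3 hpi and not at 0 hpi. The 48 to 0 hpi ratio was 6.85 (3.05 to 18) by C/EBPα, 79.3 (13.9 to 3166, from 1 read at 0 hpi) by C/EBPβ and 8.09 (2.55 to 41.0) by PU.1 reads. Within 500 bp the C/EBPα ratio was 4.12 and that of C/EBPβ 22.6, and with thinned libraries that of C/EBPα was 15.5. The lysozyme pair thus held a distal site with PU.1 called before induction and C/EBPα called at 10 min, and a site where all 3 factors were first called at 3 hpi. For C/EBPβ and PU.1, 3 hpi was the first library after induction, so whether they reached the site earlier was not tested.

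**Figure D2:**
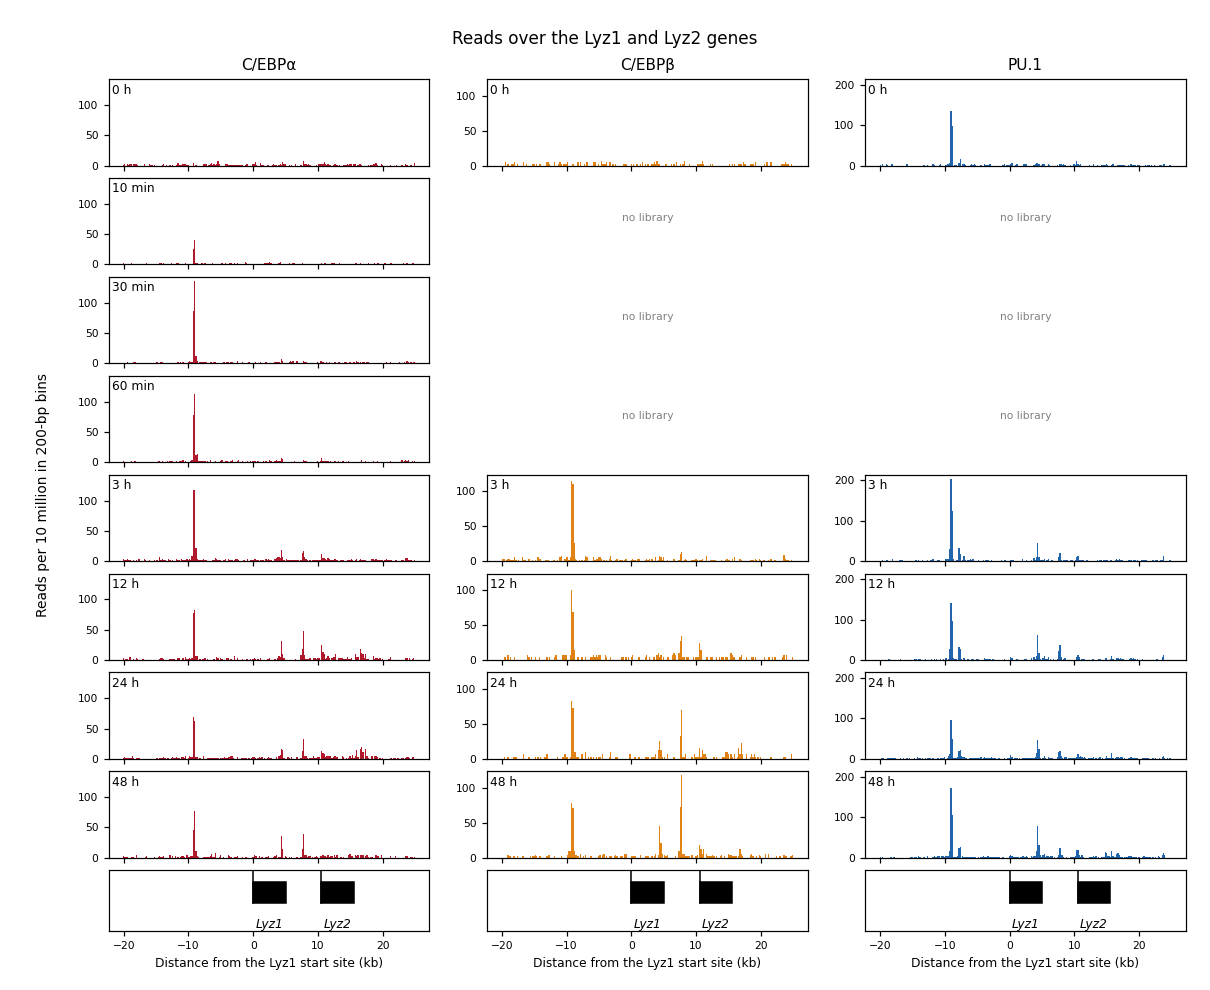
Reads per 10 M in 200-bp bins (y axis, the same scale within a factor) over the lysozyme genes, by distance from the Lyz1 TSS in kb (x axis). Rows are times, columns are factors, black boxes are the genes and vertical ticks their TSS. The PU.1 peak at −9.0 kb is there at 0 hpi. The peak between the genes, which is Lyz2 −2.8 kb, appears from 3 hpi in all 3 factors. No C/EBPβ or PU.1 library lies between 0 and 3 hpi.

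The paralogues were compared at their start sites and at their 3′ ends. Windows of 500 bp on either side of the Lyz1 TSS held 3.08 to 11.3 C/EBPα reads. Of all protein-coding TSS windows, 42.2% held fewer at 12 hpi and 44.2% at 48 hpi. The Lyz2 TSS window held 12.4, 6.82, 10.8, 10.7, 24.3, 53.6, 33.0 and 12.6 C/EBPα reads, and 98.3% of all TSS windows held fewer at 12 hpi and 66.2% at 48 hpi. PU.1 reads in the Lyz2 TSS window were 19.9, 27.4, 26.1, 31.7 and 52.6, a 48 to 0 hpi ratio of 2.65 (1.45 to 5.15), against 12.8, 3.04, 12.1, 16.7 and 11.5 in that of Lyz1 (ratio 0.898, 0.347 to 2.41). The 500 bp upstream of the TSS were 55.0% identical between the genes.

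Near the 3′ end, within an annotated UTR, Lyz1 had a site at +4.4 kb and Lyz2 one at +4.3 kb (a pair chosen after their values were seen), and over 200 bp on either side the sequences were 94.5% identical. PU.1 reads at the Lyz1 site were 12.8, 56.3, 87.7, 75.8 and 116, called from 3 hpi. At the Lyz2 site they were 4.25, 6.08, 8.40, 7.93 and 25.8, called at 48 hpi only. Within each library the Lyz1 site held 3.00-fold (0.749 to 17.2) as many PU.1 reads at 0 hpi, 9.25-fold at 3 hpi, 10.4-fold at 12 hpi (5.27 to 23.5), 9.56-fold at 24 hpi and 4.48-fold at 48 hpi (2.93 to 7.08). C/EBPα reads were 51.5 and 10.1 at 48 hpi at the Lyz1 and Lyz2 sites, a ratio of 5.12 (2.37 to 12.7). Reads of 36 bases can be placed at 80.2% of positions in the Lyz1 window and 80.5% in the Lyz2 window, and the share of reads lost to the other copy was not measured. Within 75 bp of the centre the Lyz1 site holds 2 copies of GAGGAAGT and the Lyz2 site 1, and each holds 1 copy of TTGCNNAA. The 30 bases around the copy that differs are given in the direction of the genes, where the motif reads ACTTCCTC, with that copy in capitals.

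Lyz1 (chr10:116725549-116725578, minus strand): gagaggtcacACTTCCTCgctttcccctcc
Lyz2 (chr10:116715087-116715116, minus strand): gagaggtcacattccctcgatttcccctct

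Counted from 1 at the 5′ end of these stretches, with the Lyz1 base before the position and the Lyz2 base after it, the differences are C12T, T14C, C20A and C30T, and the C12T and T14C pair lies inside the motif. Whether the letters bear on the reads was not tested. Beyond the end of Lyz2, the site with most C/EBPα reads was +6.1 kb, called at 12 hpi (31.8 reads) and 24 hpi (36.9 reads) and at 10.1 reads at 48 hpi.

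Prtn3 and Elane, which encode related neutrophil serine proteases, also lie next to each other on chromosome 10, both on the plus strand (Prtn3 at 79337221 to 79345919, Elane at 79349057 to 79350961). Prtn3 −1.6 kb, in an intron of a Prtn3 transcript that starts further upstream, held 10.2, 24.1, 86.2, 93.7, 125, 188, 113 and 72.9 C/EBPα reads, called from 10 min. The 12 hpi library stood 18.5-fold above 0 hpi and 2.57-fold above 48 hpi. C/EBPβ reads were 14.0, 44.5, 58.6, 70.5 and 108, so that C/EBPα was past its highest value while C/EBPβ was at its highest in the last library. PU.1 reads were 4.25, 22.8, 30.8, 15 and 5.73, called at 3 hpi only. A neighbouring site at −2.3 kb, chosen after its values were seen, had C/EBPα called from 30 min, with 136 reads at 12 hpi and 25.1 at 48 hpi. Its PU.1 reads were 35.5, 48.7, 23.3, 28.2 and 38.2, called at all times but 12 hpi, and the 48 to 0 hpi ratio had an interval that included 1 (1.08, 0.638 to 1.85).

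The start sites of both proteases carried PU.1 as well, and at 12 and 24 hpi they held more of it than Prtn3 −2.3 kb. Prtn3 −0.1 kb, 72 bp upstream of the TSS, held 25.5, 33.5, 109, 53.7 and 22.0 PU.1 reads, called at all 5 times, with 12 hpi 4.28-fold above 0 hpi and 4.97-fold above 48 hpi. Elane −0.1 kb, 56 bp upstream of its TSS, held 1.42, 28.9, 68.1, 40.5 and 30.6 PU.1 reads, not called at 0 hpi and called from 3 hpi. Its 48 to 0 hpi ratio was 21.6 (3.60 to 878), or 7.86 within 500 bp. Within 100 bp 0 hpi held no read, and reading that count of 0 as 3 gave a lower limit of 5.61. The Prtn3 start site was thus occupied by PU.1 in pre-B cells and ended near its starting level (ratio 0.861, 0.445 to 1.69), while that of Elane began at 1 read and stayed above it. Each of the 2 printed sequences holds 1 copy of GAGGAAGT. C/EBPα was called at Elane −0.1 kb at 3, 12 and 24 hpi (13.5, 20.1 and 21.1 reads) and never at Prtn3 −0.1 kb, where its highest value was 33.5 at 12 hpi. C/EBPβ was called at neither, with 2.34, 8.56, 6.89, 19.2 and 13.8 reads at Elane −0.1 kb and at most 7.01 at Prtn3 −0.1 kb.

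Elane −1.7 kb was a C/EBPα site of the middle of the course. Its C/EBPα reads were 6.77, 3.21, 10.8, 5.63, 53.0, 75.4, 29 and 15.1, called at 30 min and from 3 to 24 hpi, and 12 hpi stood 5.00-fold above 48 hpi. The 48 to 0 hpi ratio had an interval that included 1 (2.23, 0.774 to 7.24). C/EBPβ reads were 0, 17.1, 13.8, 12.8 and 13.8 and PU.1 reads 7.09, 10.6, 20.5, 5.29 and 6.69, called at no time. The printed sequence holds 1 copy of TTGCNNAA. Over the pair of genes, 12 hpi was the highest library for C/EBPα at Prtn3 −1.6 kb and Elane −1.7 kb and for PU.1 at Prtn3 −0.1 kb and Elane −0.1 kb. This was not particular to the pair. The median TSS window of all protein-coding genes was also highest at 12 hpi, with 10.1 C/EBPα and 7.47 PU.1 reads.

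**Figure D3:**
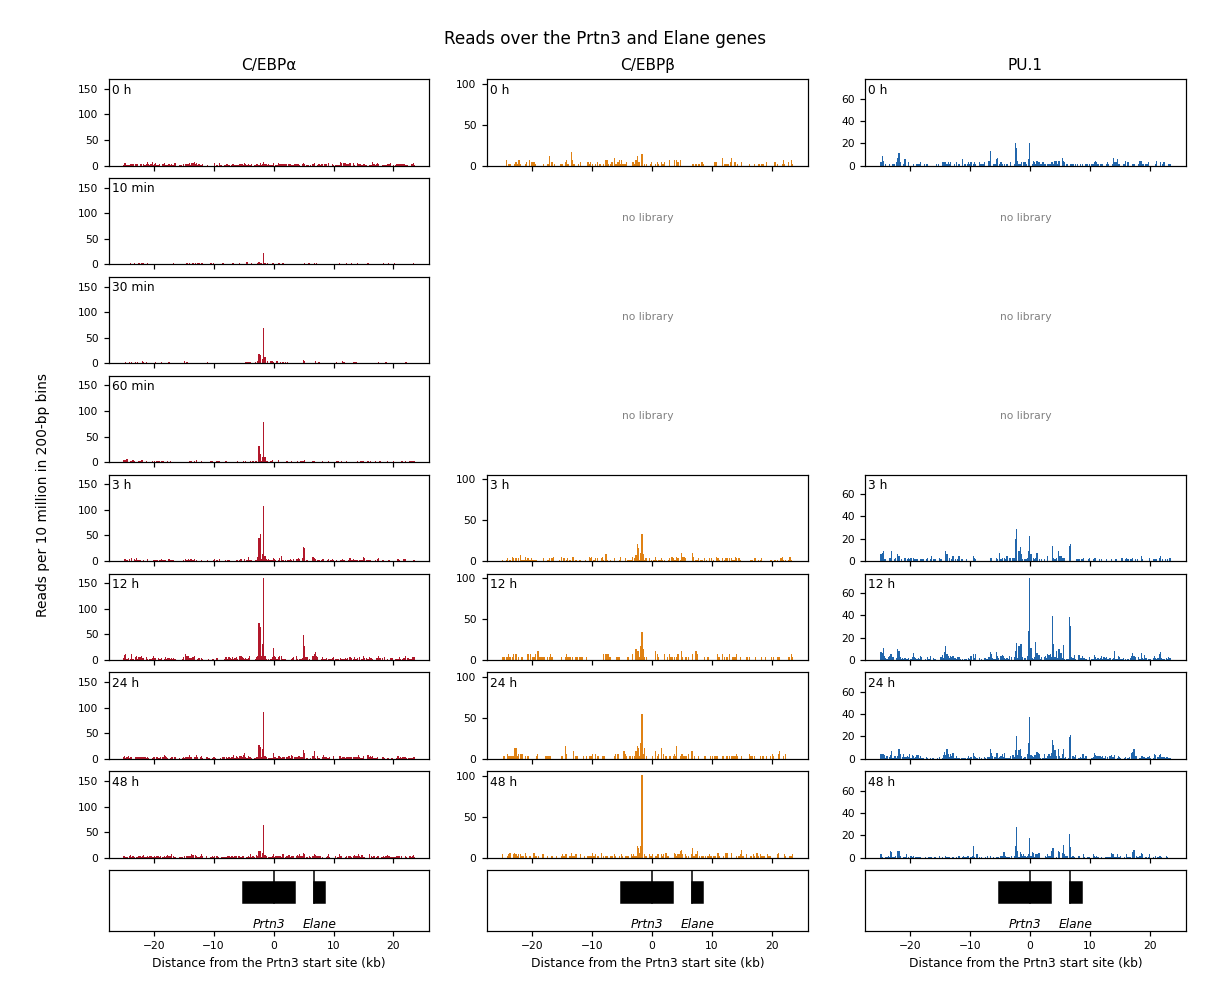
Reads per 10 M in 200-bp bins (y axis, the same scale within a factor) over the Prtn3 and Elane genes, by distance from the Prtn3 TSS in kb (x axis). Rows are times, columns are factors, black boxes are the genes and vertical ticks their TSS. C/EBPα and C/EBPβ reads gather at −1.6 kb. PU.1 reads gather at the 2 start sites at 12 and 24 hpi, and the highest Prtn3 PU.1 bin lies at −2.4 kb at 0 hpi and at −2.2 kb at 3 and 48 hpi.

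The remaining primary granule genes behaved differently from this pair and from each other. Mpo (chr11:87607083-87617915, plus strand) makes the peroxidase that turns chloride into hypochlorous acid. Its C/EBP site 3.4 kb upstream was late, with 0, 0.401, 3.08, 2.05, 8.99, 26.8, 40.9 and 35.2 C/EBPα reads, called from 12 hpi. The 0 hpi library held no read, with an exact two-sided upper limit of 4.16 per 10 M, and the lower end of the exact interval of the 48 to 0 hpi ratio was 7.92. C/EBPβ reads were 0, 5.13, 10.3, 19.2 and 25.6, called at 48 hpi only, where the lower end of the interval of the 48 to 0 hpi ratio was 2.57. PU.1 reads at this site stayed between 4.25 and 6.69 and were never called. The sequence holds 1 copy of TTGCNNAA and none of GAGGAA. PU.1 was called at the other 4 sites of the locus. The one with most PU.1 reads lies 15.2 kb downstream of the Mpo TSS, in an intron of the neighbouring lactoperoxidase gene Lpo, with 36.9, 47.1, 49.5, 60.8 and 77.4 reads, called at all 5 times. The 48 to 0 hpi ratio was 2.10 (1.33 to 3.40), and C/EBPα (at most 5.03) and C/EBPβ (at most 5.91) were never called there. Mpo −14.0 kb, in a coding exon of Bzrap1 and chosen after its values were seen, held 1.42, 0, 15.9, 37.9 and 36.3 PU.1 reads, called from 12 hpi, a 48 to 0 hpi ratio of 25.6 (4.33 to 1038). The Mpo TSS window was near the middle of all genes for C/EBPα, 13.4 reads at 12 hpi with 58.7% of TSS windows lower.

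Ctsg (chr14:56718718-56721411, minus strand) had a single site in its locus. At −3.1 kb, C/EBPα reads were 3.38, 1.20, 2.31, 2.05, 14.4, 0, 1.32 and 2.51, called at 3 hpi only, the call that made it a site. C/EBPβ (2.34 to 5.13 reads) and PU.1 (0 to 4.25 reads) were not called there or anywhere else in the locus. The Ctsg TSS window held at most 8.38 C/EBPα, 10.3 C/EBPβ and 11.3 PU.1 reads, and PU.1 went from 11.3 at 0 hpi to 1.91 at 48 hpi, a ratio of 0.168 (0.0174 to 0.844) on few reads. The gene body could be covered in full by unique 36-base reads and the locus at 81.4% of positions.

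Among the secondary granule genes, Camp (chr9:109749889-109751970, minus strand), whose product is cut to an antimicrobial peptide, had the largest C/EBPα read count of all 50 sites. The site lies 190 bp upstream of the TSS. C/EBPα reads were 4.51, 3.21, 10.8, 30.2, 128, 225, 198 and 124, called from 30 min, with 12 hpi 49.8-fold above 0 hpi and 1.80-fold above 48 hpi. C/EBPβ reads were 0, 47.9, 51.7, 141 and 112, called from 3 hpi, and the lower end of the interval of the 48 to 0 hpi ratio was 12.6. PU.1 reads were 1.42, 4.56, 16.8, 22.9 and 11.5, called at 24 hpi only. In the window of 500 bp on either side of the TSS, C/EBPα was 10.9-fold higher at 48 than at 0 hpi (5.88 to 22.6), and 99.9% of all protein-coding TSS windows held fewer C/EBPα reads at 48 hpi. The printed sequence holds none of the 3 motifs. PU.1 sat elsewhere, 4.3 kb downstream of the TSS in intergenic sequence, with 79.4, 86.7, 113, 78.4 and 140.5 reads, called at all 5 times (48 to 0 hpi 1.77, 1.29 to 2.45) and with at most 5.03 C/EBPα and 6.89 C/EBPβ reads.

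The 5 called sites elsewhere in the genome whose 18 values were most like those of Camp −0.2 kb, by the root mean square difference of log2(reads per 10 M + 1), had as nearest protein-coding TSS those of Plin2 (difference 0.60, 20.4 kb away), Grb14 (0.67, 78.9 kb), Btg3 (0.68, 96.8 kb), 3110002H16Rik (0.68, 17.1 kb) and Prdm1 (0.70, 243.6 kb). All 5 held fewer C/EBPα reads at their highest, 129 to 186.

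Ltf (chr9:110921796-110945270, plus strand), the iron-binding lactoferrin, had 8 sites with varied courses. Ltf −2.0 kb, which was chosen after its values were seen, was transient, with 4.51, 1.20, 16.2, 19.5, 32.4, 5.03, 0 and 1.26 C/EBPα reads, called at 30 min, 60 min and 3 hpi. C/EBPβ was called there at 3 hpi as well, with 0, 25.7, 0, 0 and 0 reads, and PU.1 stayed between 0.881 and 3.04. Ltf +14.6 kb, in an intron, took up C/EBPα later and kept it, with 3.38, 4.01, 4.62, 3.07, 19.8, 25.1, 27.7 and 20.1 reads, called from 3 hpi. C/EBPβ reads there were 2.34, 13.7, 27.6, 28.8 and 65.0 (48 to 0 hpi 27.9, 4.66 to 1133, or 14.3 within 500 bp). Within 100 bp and with thinned libraries 0 hpi held no C/EBPβ read, and reading that count of 0 as 3 gave lower limits of 7.31 and 5.67. PU.1 reads were 14.2, 7.60, 39.2, 20.3 and 22.0, called from 12 hpi. The largest PU.1 site, +27.1 kb and beyond the end of the gene, held 44.0, 50.2, 125, 132 and 98.4 PU.1 reads, called at all 5 times, and 4.51, 2.41, 4.62, 1.54, 4.49, 25.1, 17.1 and 6.29 C/EBPα reads, called at 12 and 24 hpi. It holds 2 copies of GAGGAAGT. Ltf +38.2 kb lies 250 bp from the TSS of the chemokine receptor-like gene Ccrl2, with 2.26, 6.02, 15.4, 13.8, 43.1, 18.4, 13.2 and 12.6 C/EBPα reads, called from 30 min to 12 hpi, and 9.34, 12.0, 6.89, 28.8 and 55.2 C/EBPβ reads, called at 24 and 48 hpi. The TSS window of Ltf itself held at most 11.3 C/EBPα and 8.81 PU.1 reads.

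Lcn2 (chr2:32240153-32243317, minus strand), which binds bacterial siderophores, had little. At the site 115 bp upstream of its TSS, C/EBPα reads were 1.13, 3.21, 7.69, 4.09, 24.3, 8.38, 11.9 and 12.6, called at 3 hpi only. Its 48 hpi library nonetheless held more than that of 0 hpi (11.1-fold, 1.59 to 484, from 1 and 10 reads), but the ratio was 1.52 within 500 bp. The values of 2.23 within 100 bp and 2.00 with thinned libraries may be lower limits, because a count of 0 at 0 hpi is read as 3. C/EBPβ (2.34 to 10.3 reads) and PU.1 (0 to 6.17 reads) were not called at it, and its sequence holds 1 copy of TTGCNNAA. The site with most PU.1 and C/EBPβ reads assigned to Lcn2, at −8.3 kb, lies 233 bp from the TSS of Ptges2, with 8.51, 12.2, 31.7, 18.5 and 14.3 PU.1 reads, called at 12 and 24 hpi, and 7.01, 20.5, 13.8, 9.61 and 13.8 C/EBPβ reads, called at no time.

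In windows of 500 bp on either side of the TSS, the members differed widely at 12 hpi. C/EBPα reads were 246 at Camp, 53.6 at Lyz2, 41.9 at Prtn3, 40.2 at Elane, 15.1 at Lcn2, 13.4 at Mpo and 8.38 at each of Lyz1, Ltf and Ctsg, where the median of all genes was 10.1. The counting intervals of Lyz2 (36.7 to 75.7), Prtn3 (27.1 to 61.8) and Elane (25.8 to 59.8) overlapped. PU.1 reads in the same windows at 12 hpi were 116 at Prtn3 and 75.6 at Elane, against at most 26.1 at the other members. Among these windows, the interval of the 48 to 0 hpi ratio lay above 1 for C/EBPα at Camp alone. For C/EBPβ it lay above 1 at Camp, Lyz2 (2.67, 1.03 to 8.18) and Ltf (lower end 1.22, from counts of 0 and 7). For PU.1 it did so at Elane (5.73, 2.04 to 22.2), Camp (4.04, 1.18 to 21.4) and Lyz2. The share of all protein-coding TSS windows with such an interval was not computed. Whether these calls are particular to the members was therefore not tested.

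**Figure D4:**
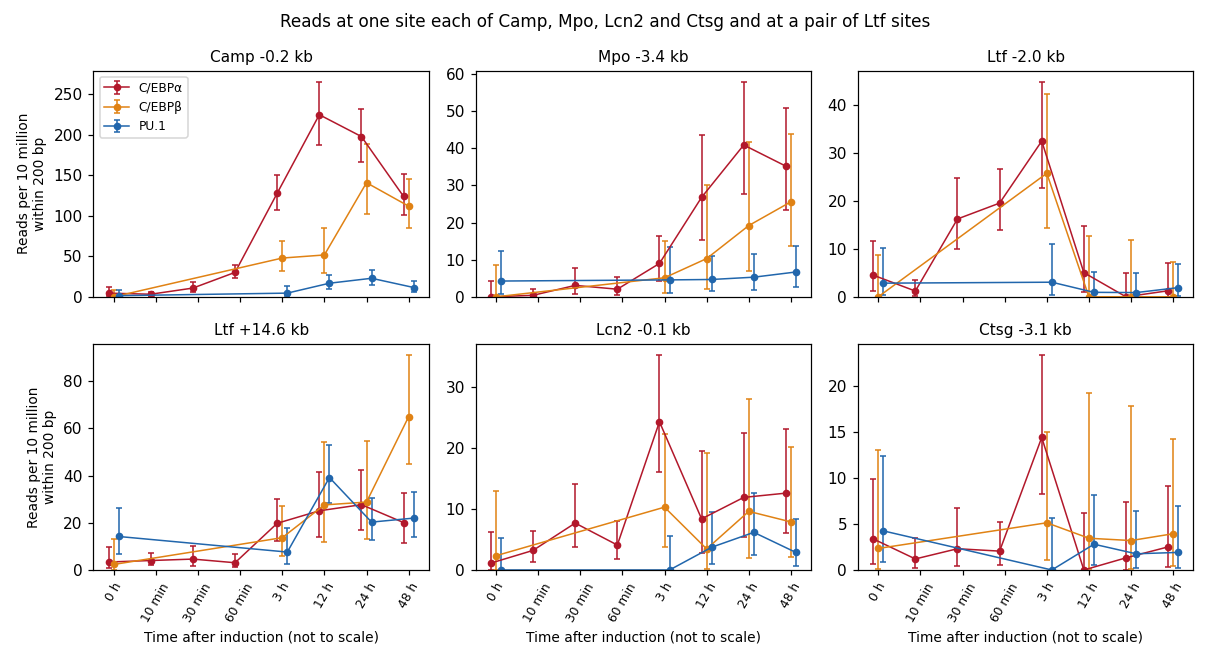
Reads per 10 M within 200 bp (y axis, a separate scale in each panel) against time after induction (x axis, not to scale) at sites of Camp, Mpo, Ltf, Lcn2 and Ctsg. Points are single libraries and bars exact Poisson 95% intervals of the counts. C/EBPα is still called at 48 hpi at Camp −0.2 kb (124, from 225 at 12 hpi) and Mpo −3.4 kb (35.2), and the 3 hpi peaks of Ltf −2.0 kb and Ctsg −3.1 kb are gone by 12 hpi.

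Across the 50 sites, 10 had a 48 to 0 hpi ratio of C/EBPα reads of at least 2 with an interval above 1, against 8.91% of the 99343 sites of the genome. Here and in the medians below, a count of 0 at 0 hpi was read as 3. At least 2-fold lower, with an interval below 1 and counts as they were, were 0 (0.872% of the genome's). The median ratio was 1.49 over the members' sites and 1.11 over all sites. C/EBPβ was higher at 10 of 50 (12.4% of all sites) and lower at 0 (0.551%), with medians of 1.34 and 0.844. PU.1 was higher at 16 of 50 (13.9% of all sites) and lower at 2 (9.50%), with medians of 1.56 and 1.01. The 2 sites with lower PU.1 reads lie 24.5 and 6.6 kb upstream of the Prtn3 TSS, nearest to the TSS of Ptbp1 and BC005764, and PU.1 was called at the latter alone, at 0 hpi.

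The combinations of factors are given with the shares over all sites of the genome. PU.1 alone was called at 28 of 50 (57.0%), C/EBPα alone at 7 (16.4%), C/EBPα with C/EBPβ at 2 (6.08%), C/EBPα with PU.1 at 4 (8.59%) and all 3 at 9 (7.94%), and C/EBPβ was called at no site without C/EBPα (3.98%). PU.1 was called at 11 sites at 0 hpi (31.6%), and C/EBPα was called at some time at 4 of these (28.1% of the 31428 such sites of the genome): Lyz1 −9.0 kb, Lyz2 −0.1 kb, Prtn3 −2.3 kb and Ltf +27.1 kb. Of the 13 sites with both C/EBPα and PU.1 called, PU.1 was called in the earlier library at 5 (53.8% of the 16423 such sites of the genome), C/EBPα at 6 (33.3%) and both first at the same time at 2 (12.9%). PU.1 was not measured between 0 and 3 hpi in the libraries used here, so whether PU.1 reached a site within the first hour was not tested. By library, 0, 2, 7, 9, 15, 14, 14 and 9 of the 50 sites had C/EBPα called, where the shares over all sites of the genome were 2.81%, 9.68%, 16.5%, 23.5%, 22.4%, 12.3%, 9.85% and 8.59%. C/EBPβ was called at 0, 6, 5, 8 and 8 (1.09%, 6.26%, 3.38%, 6.82% and 15% of all sites), and PU.1 at 11, 15, 29, 32 and 27 (31.6%, 35%, 58.7%, 44.8% and 41.6%). When every C/EBPα library was thinned to the depth of the 12 hpi one, the members' counts were 0, 2, 4, 5, 14, 14, 14 and 8. Shares over the genome's sites were not computed after thinning, so whether this course is particular to the members was not tested.

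**Figure D5:**
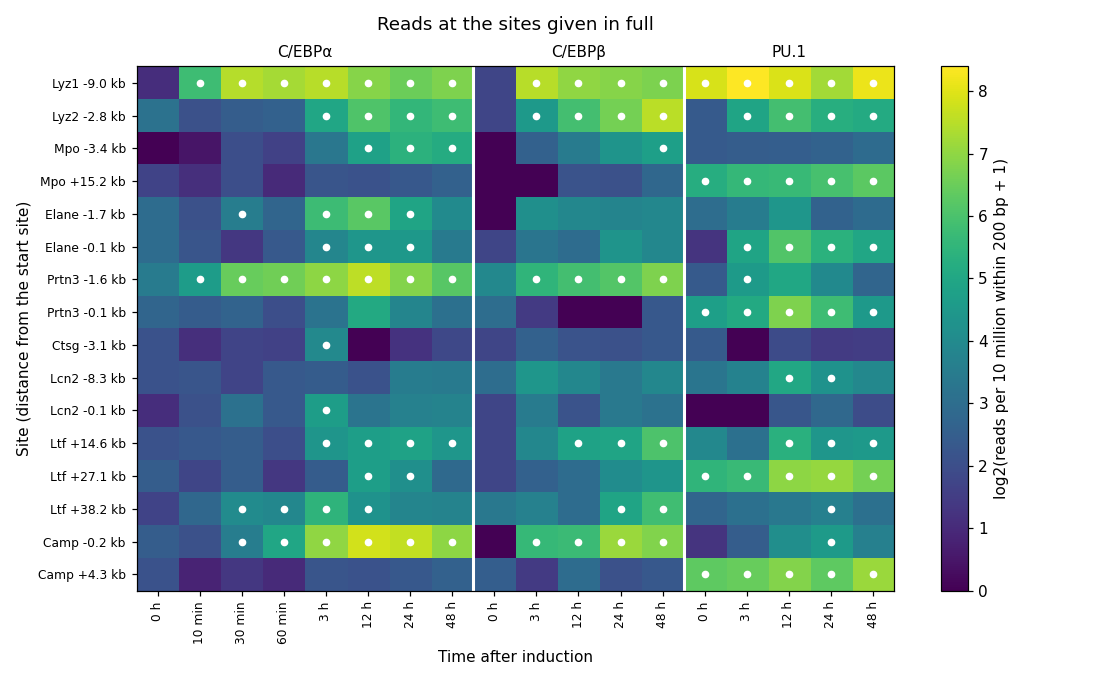
Reads within 200 bp as log2(reads per 10 M + 1) (colour) at the 16 sites given in full (rows) in each of the 18 libraries (columns, by factor and time). White dots mark libraries in which the site was called. Lyz1 −9.0 kb is called in all but the 0 hpi C/EBP libraries, and Camp +4.3 kb and Mpo +15.2 kb carry dots under PU.1 alone.

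In sequence, 4 of the 22 sites with C/EBPα called held TTGCNNAA within 75 bp of the centre, against 28.5% of the 38716 such sites of the genome, and 8 of the 41 with PU.1 called held GAGGAAGT, against 22.1% of 74431. The 3 sites with most C/EBPα reads, Camp −0.2 kb, Prtn3 −1.6 kb and Lyz1 −9.0 kb, lack these C/EBP letters, which says only that this spelling is not in these windows. By position 26 of the 50 sites were intergenic, 11 intronic, 6 in coding exons, 5 in UTRs and 2 in other exons, and for 31 of them the nearest protein-coding TSS was that of a member. Shares over the genome's sites were not computed for these positions.

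A list of 21 other granule genes was counted in the same way. C/EBPα regions lay in 5 of the 21 loci at 0 hpi (14.1% of all loci), 8 at 10 min (29%), 11 at 48 hpi (31.1%) and 16 at any time (61.8%). C/EBPβ regions lay in 1 at 0 hpi (5.87%) and 13 at 48 hpi (41.2%). PU.1 regions lay in 13 and 14, close to the 62.4% and 66.2% of all loci. The largest C/EBPα read count was 303 at 12 hpi, 16.3 kb upstream of Slpi, an inhibitor of neutrophil serine proteases, with 15.8 at 0 hpi. The largest C/EBPβ count was 372 at 48 hpi, 18.1 kb downstream of the TSS of Srgn, the proteoglycan core of granules, with 53.7 at 0 hpi. The largest PU.1 count was 472 at 0 hpi, 12.9 kb upstream of Prg2, the eosinophil major basic protein, in the library of uninduced pre-B cells. The calprotectin gene S100a8, chosen after its values were seen, had PU.1 at 64 reads at 48 hpi 0.1 kb upstream of its TSS, with 4.25 at 0 hpi. S100a9, of the same list, had no site with PU.1 called, and its sites held at most 6.08 PU.1 reads. No site of any factor was called in the loci of Ear1, Ear2 and Pglyrp1, and unique 36-base reads could be placed at 24.7%, 33.0% and 90.5% of their positions.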

How the data were processed

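The data are 18 ChIP-seq libraries, 1 for each factor and time, deposited by the authors as 1 line per mapped read. Read positions are whole-genome coordinates in mm9 and carry no score, so the signal used here is a count of reads made from the deposited files. According to the study's methods the authors aligned the reads with Eland or Bowtie without mismatches and kept unique reads, removed identical tags and called peaks with HOMER. Versions are not given in the sources used here, and the authors' peak calls were not used. The study's parameter table names the PU.1 0 hpi library as merged, without saying of what, which bears on every PU.1 ratio to 0 hpi, and 1 faulty line of its file was dropped. Reads were 36 bases in 10 libraries, 40 in the 5 C/EBPβ libraries and 50 in 3.

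Here the 5′ end was moved 75 bp inward and 1 read was kept per position and strand (at most 2.51% were dropped). Regions were 200-bp windows with a Poisson p of at most 1e-07 for a genome of 2000000000 bp, at least 4 times the density of the surrounding 10 kb, a Poisson p against that background no higher than 0.0001 and centres 400 bp apart. Regions within 300 bp were merged across libraries. Loci were GENCODE vM1 gene spans plus 20 kb, and the TSS was the most upstream one of the gene's CCDS transcripts, or of its protein-coding transcripts where it had none. The caller and the ratio intervals were tested on simulated data. A site in the loci of 2 members was given to the nearer TSS. Sites given in full were, per member, those of its assigned sites with most reads of each factor, called or not. Other sites are named as chosen after their values were seen or by counts. The members and lists were chosen with earlier results of these data known. Alternatives were other thresholds, folds, shifts, margins, read windows, scalings, duplicates kept and thinning to the smallest library of a factor. Python 3.11.15, numpy 2.4.6, scipy 1.17.1, pandas 2.3.3, pysam 0.24.0, samtools 1.23.1 and matplotlib 3.10.9 were used.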

Additional observations from a re-analysis of the deposited data

How the results depend on the processing

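The 50 bound sites became 28 with a margin of 5 kb and 92 with one of 50 kb, and the 11 sites with PU.1 called at 0 hpi became 7 and 26, since the locus itself is then shorter or longer. With the margin kept, other thresholds, folds, shifts, duplicates and depths gave 40 to 65 sites and 8 to 16 with PU.1 at 0 hpi. C/EBPα regions lay in 9 member loci and PU.1 regions in 8 under every alternative run, and C/EBPβ regions in 7, or in 6 when thinned or with the 5 kb margin. C/EBPβ was called at 0 hpi at 1 site when thinned, at 2 with a threshold of 1e-05 and at 0 under the other 6 alternatives. The number of sites higher at 48 than 0 hpi ranged from 8 to 11 for each of the C/EBP factors, and the range of PU.1 was 12 to 16. Of 287 recomputed 48 to 0 hpi ratios at the sites given in full, 275 lay within the interval of the ratio as reported and 14 crossed 1, all of ratios whose own interval included 1. With 500 bp either side, the C/EBPα ratio was 8.92 at Camp −0.2 kb and 1.52 at Lcn2 −0.1 kb. Many values over few reads at 0 hpi moved several-fold, some of them because a count of 0 there was read as 3, which gives a lower limit. Over the alternatives C/EBPβ at Lyz1 −9.0 kb ranged from such a limit of 5.35 (100 bp either side) to a ratio of 73.4 (500 bp). PU.1 at Prtn3 −1.6 kb ranged from 0.333 (thinned) to 3.37 (100 bp). At Lyz2 −2.8 kb C/EBPα ranged from 4.12 to 15.5 and C/EBPβ from 22.6 to 87.2. The range was 5.67 to 30.6 for C/EBPβ at Ltf +14.6 kb and 5.61 to 22.1 for PU.1 at Elane −0.1 kb, where both low ends are lower limits of the same kind. With the 3-read limit wherever 0 hpi held no read, C/EBPα at Mpo −3.4 kb ranged from 7 to 10.8 and C/EBPβ at Camp −0.2 kb from 10.7 to 58.2. No paired analysis was possible because there is 1 library per factor and time and the labels give no replicate numbers, and no replicate could be left out for the same reason. Counts of 1 to 4 reads at 0 hpi limit the precision of most large ratios.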
